A study of Mus musculus with 20 samples.

Results

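The genes described here are 32 genes of fatty acid oxidation, ketogenesis and control by PPAR-alpha, taken by name from the 49315 genes of a deposited liver expression table, and all 32 passed the minimum mean of 1 TPM used for testing. TPM is a gene's length-corrected share of its library. The livers came from mice with diet-induced obesity (DIO) and steatohepatitis (NASH), and every mouse of both groups was kept on the AMLN diet of the Gubra model, a feed high in fat, sugar and cholesterol. The vehicle group of 10 mice received 1% HEC, and the S217879 group of 10 mice received 30 mg/kg S217879 by mouth (PO) once daily (QD), each over 8 weeks. The title of the series presents the agent as a selective disruptor of the binding between NRF2, the transcription factor of the antioxidant response, and KEAP1, its repressor. Strain, sex and age are not stated by the labels, which number each animal separately.

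Fatty acids are burned in mitochondria after activation to acyl-CoA esters and transfer across the membranes as carnitine esters. Each turn of beta-oxidation then passes through an acyl-CoA dehydrogenase, a hydratase, a hydroxyacyl-CoA dehydrogenase and a thiolase, electrons leave through the electron transfer flavoprotein, and in liver much of the acetyl-CoA becomes ketone bodies. Peroxisomes shorten very long chains with enzymes of their own, and acyl-CoA thioesterases release free fatty acids again. PPAR-alpha is a nuclear receptor for fatty acids that pairs with RXR and switches on most of these genes in the fasted liver, with PGC-1alpha as a coactivator.

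The genes that differed most between the groups included a run of thioesterase genes that lie side by side. Acot2, Acot1, Acot4 and Acot3 follow each other in this order on the plus strand of chromosome 12 over 72.5 kb, at 83987861-83993873, 84009490-84018371, 84038379-84048601 and 84052144-84060402 (GENCODE M21, GRCm38). The 250 bases before the RefSeq starts of these 4 genes are printed here because the genes moved together. Those of Ehhadh and Cpt1a are printed because these genes moved in opposite directions. Distances to a start are counted from the RefSeq start, which can differ from the GENCODE start. The GENCODE gene of Cpt1a begins at 3322334, before its window, and the Acot1 window runs past the GENCODE start of Acot1. Sequences are from RefSeq (GRCm38.p6), 5′ to 3′ on the strand of the gene. Capitals mark 2 motifs, each searched on both strands, so that a match may stand as its reverse complement. AGGTCA is the core recognised by many nuclear receptors, among them PPAR-alpha with RXR, and TGACNNNGC is the core of the antioxidant response element.
Acot2 (chr12:83987611-83987860, plus strand): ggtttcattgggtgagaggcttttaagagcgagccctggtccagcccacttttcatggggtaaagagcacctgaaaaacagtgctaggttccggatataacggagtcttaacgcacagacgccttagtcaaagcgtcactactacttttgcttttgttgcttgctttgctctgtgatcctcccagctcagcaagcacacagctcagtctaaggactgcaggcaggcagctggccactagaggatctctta
Acot1 (chr12:84009252-84009501, plus strand): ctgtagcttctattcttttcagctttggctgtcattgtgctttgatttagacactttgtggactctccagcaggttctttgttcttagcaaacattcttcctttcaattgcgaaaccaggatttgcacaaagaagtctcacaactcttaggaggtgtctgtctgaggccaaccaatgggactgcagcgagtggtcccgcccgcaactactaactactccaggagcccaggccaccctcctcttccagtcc
Acot4 (chr12:84038129-84038378, plus strand): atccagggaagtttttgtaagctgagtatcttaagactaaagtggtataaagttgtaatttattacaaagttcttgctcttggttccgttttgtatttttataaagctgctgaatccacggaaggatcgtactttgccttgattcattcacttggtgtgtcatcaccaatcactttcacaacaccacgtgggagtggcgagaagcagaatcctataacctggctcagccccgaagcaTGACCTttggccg
Acot3 (chr12:84051894-84052143, plus strand): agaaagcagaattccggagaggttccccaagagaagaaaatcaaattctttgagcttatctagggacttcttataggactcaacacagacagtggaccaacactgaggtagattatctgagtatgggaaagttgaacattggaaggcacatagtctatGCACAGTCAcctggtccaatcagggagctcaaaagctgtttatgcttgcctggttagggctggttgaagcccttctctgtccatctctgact
Ehhadh (chr16:21787835-21788084, minus strand): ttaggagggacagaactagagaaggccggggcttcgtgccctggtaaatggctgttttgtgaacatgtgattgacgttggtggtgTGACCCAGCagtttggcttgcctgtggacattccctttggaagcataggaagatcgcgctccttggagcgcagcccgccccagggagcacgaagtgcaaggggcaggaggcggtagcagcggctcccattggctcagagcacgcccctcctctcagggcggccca
Cpt1a (chr19:3323051-3323300, plus strand): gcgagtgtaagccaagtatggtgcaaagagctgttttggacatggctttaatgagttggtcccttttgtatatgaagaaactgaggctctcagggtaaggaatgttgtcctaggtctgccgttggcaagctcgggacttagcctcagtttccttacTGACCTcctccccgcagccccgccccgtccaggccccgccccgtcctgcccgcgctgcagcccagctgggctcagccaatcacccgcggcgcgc
The Acot2 and Acot1 windows held neither motif. AGGTCA lay 13 bases before the start of Acot4 and 94 bases before that of Cpt1a, and TGACNNNGC lay 92 bases before the start of Acot3 and 165 bases before that of Ehhadh, each counted from the first base of the match as read on the gene's strand. Windows were found for 27 of the 32 genes. AGGTCA stood in 6 of them, Acadm, Acadvl, Acot12, Acot4, Cpt1a and Echs1, and in 14.02% of all 32851 RefSeq windows. TGACNNNGC stood in 2, Acot3 and Ehhadh, and in 10.16% of all windows. The motif AGGTCANAGGTCA, in which 2 such cores follow each other with 1 base between them, stood in 0 of the 27 without mismatch (0.03% of all windows). With up to 2 mismatches it stood in 4, Acot12, Acot4, Echs1 and Etfa (3.24% of all windows), and at Acot4, Acot12 and Echs1 it overlapped the AGGTCA match. The 4 thioesterase windows shared 55.7% to 60.9% of aligned bases pairwise, with no identical run over 7 bases. A match describes letters in a window and no binding was measured.

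Libraries differed in scale within and between the groups, so each result is given with its scale. The size factor, by which median-of-ratios scaling divides each library, had a median of 1.127 in vehicle and 0.975 in S217879 livers. It ranged from 1.031 to 1.234 in vehicle livers without replicates 6 and 7, which stood at 0.684 and 0.783. In S217879 livers it ranged from 0.844 to 1.153. The group medians of the size factor thus differed while the ranges overlapped. Neither this difference nor its cause was tested. The 4 genes Gm23935, Gm24270, Gm42418 and Mir6236, called rRNA-type here because such models collect ribosomal RNA reads, took 58.2% of vehicle replicate 6 and 50.7% of vehicle replicate 7 but at most 31.4% of the other vehicle libraries and 14.1% to 38.1% of the S217879 libraries. As deposited, vehicle replicate 6 had the lowest vehicle level of 31 of the 32 genes. The tables hold no read numbers, and each value's precision is the spread between animals. The median log2 difference of all 13401 tested genes was -0.12 as deposited, -0.01 after median-of-ratios scaling, -0.25 after rescaling without those 4 genes and -0.23 without vehicle replicates 6 and 7. Nqo1, a standard NRF2 target, was at 8.51 to 19.6 TPM in vehicle and 74.9 to 122 TPM in S217879 livers. The summed level of 10 hepatocyte markers was 38439 to 85797 TPM in vehicle and 53474 to 81274 TPM in S217879 livers, so these markers were abundant in every library.

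Of the 32 genes, 2 were called higher with S217879, Ehhadh and Acadm, beside 6.07% of all tested genes (limma, Benjamini-Hochberg adjusted p under 0.05). Another 8 were called lower, Acot2, Pdk4, Acot3, Acot1, Cpt1a, Ppargc1a, Bdh1 and Acot4, beside 23.5% of all tested genes. These shares of the 32, 6.25% and 25.0%, were near the background, and the median log2 difference of the 32 genes was -0.01. After median-of-ratios scaling 16 genes were called higher and 10 lower (26.6% and 27.1% of all tested genes), and after rescaling without the 4 rRNA-type genes 6 were called higher and 18 lower (7.15% and 63.1%). Without vehicle replicates 6 and 7 the counts were 2 and 15 (5.56% and 54.4%). The same 2 higher and 8 lower genes were called in the same direction on all 3 scales, as were 5.77% and 22.6% of all genes. The groups did not overlap for 3 of the 32 genes as deposited (Ehhadh higher, Acot2 and Pdk4 lower), beside 1.84% of all tested genes higher and 1.89% lower. After median-of-ratios scaling they did not overlap for 10 (8 higher and 2 lower, beside 7.55% and 5.04%), after the rRNA-type rescaling for 8 (Ehhadh higher and 7 lower, beside 1.95% and 18.3%) and without vehicle replicates 6 and 7 for 6 (Ehhadh higher and 5 lower, beside 1.87% and 9.58%). In bulk tissue, fewer cells of a type and less RNA per cell cannot be told apart.

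**Figure D1:**
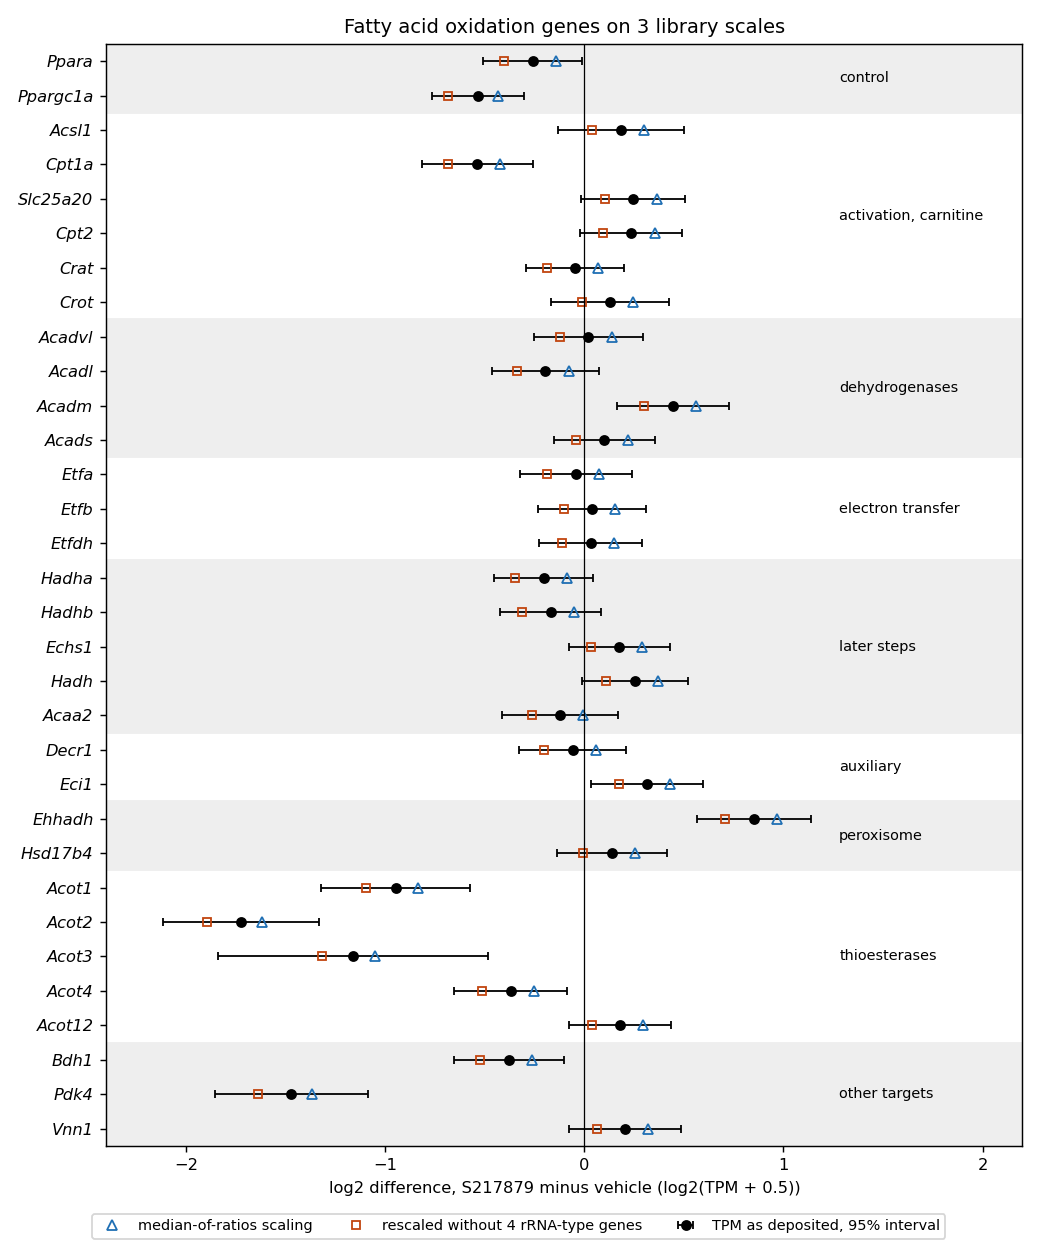
Log2 difference between S217879 and vehicle (horizontal axis, log2(TPM + 0.5)) for each of the 32 genes, grouped by role. Filled points with bars are the values as deposited with 95% intervals, triangles follow median-of-ratios scaling and squares follow rescaling without the 4 rRNA-type genes; the thioesterases Acot1, Acot2 and Acot3 and Pdk4 lie farthest left, and Ehhadh, at 0.85, lies farthest right.

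Both genes of transcriptional control were at lower mean levels with S217879, and the coactivator passed the test. Ppargc1a, which encodes PGC-1alpha, was the least abundant of the 32 genes. It ranged from 2.72 to 4.83 TPM (median 3.49) in vehicle livers and from 1.38 to 3.37 TPM (median 2.28) in S217879 livers. All 10 S217879 livers lay below the vehicle median, although the ranges overlapped. The means were 3.53 ± 0.68 and 2.30 ± 0.54 TPM (SD, n = 10 each), and the gene fell by 0.53 on the log2 scale (SE 0.11, 95% interval -0.76 to -0.30, limma adjusted p = 3.29e-04). Ppara itself ranged from 81.0 to 144 TPM (median 134) in vehicle and from 85.9 to 128 TPM (median 96.5) in S217879 livers. Here too 10 of 10 S217879 livers lay below the vehicle median, but the 2 lowest vehicle libraries were replicates 6 and 7. Ppara averaged 123 ± 21.8 and 102 ± 15.5 TPM, with a log2 difference of -0.26 (SE 0.12, 95% interval -0.51 to -0.01) that missed the threshold as deposited (limma adjusted p = 0.1111). It passed without vehicle replicates 6 and 7 (-0.37, adjusted p = 0.0014), after median-of-ratios scaling (-0.14, adjusted p = 0.0385) and after rescaling without the rRNA-type genes (-0.40, adjusted p = 1.22e-05). Scaling by median of ratios and leaving out those 2 libraries together gave -0.13, which missed the threshold (adjusted p = 0.0964), and Ppara was called in 6 of 33 alternatives.

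In the carnitine shuttle the gate enzyme fell, while the later steps had positive differences whose calls depended on the scale. Cpt1a, the outer membrane carnitine palmitoyltransferase that sets the rate of fatty acid entry, ranged from 211 to 441 TPM (median 379) in vehicle and from 170 to 335 TPM (median 231) in S217879 livers. All 10 S217879 livers lay below the vehicle median, and they overlapped with vehicle replicates 6 and 7 alone. The means were 353 ± 71.0 and 242 ± 46.4 TPM, and Cpt1a fell by 0.54 (SE 0.14, 95% interval -0.82 to -0.26, limma adjusted p = 0.0025). Cpt2, the inner membrane partner, averaged 110 ± 23.4 and 127 ± 11.3 TPM, and Slc25a20, the carnitine-acylcarnitine carrier, averaged 50.6 ± 11.04 and 59.0 ± 7.48 TPM. Both had positive log2 differences, 0.24 and 0.25, that did not pass as deposited (adjusted p = 0.1609 and 0.1479) but did after median-of-ratios scaling, where their groups did not overlap (0.35, adjusted p = 1.70e-06, and 0.36, adjusted p = 3.17e-06). After the rRNA-type rescaling they were 0.09 and 0.11 (adjusted p = 0.0117 and 0.0376), and as deposited without vehicle replicates 6 and 7 they were 0.08 and 0.08 and did not pass (adjusted p = 0.3222 and 0.3803). With median-of-ratios scaling and without those 2 libraries they were 0.32 and 0.32 (limma adjusted p = 1.02e-05 and 1.04e-05). Acsl1, the main acyl-CoA synthetase of this set, averaged 151 ± 41.5 and 167 ± 33.3 TPM. Crat, which makes acetylcarnitine, averaged 35.2 ± 6.53 and 34.0 ± 5.28 TPM, and Crot, the peroxisomal carnitine octanoyltransferase, 181 ± 54.9 and 191 ± 22.2 TPM. None of Acsl1, Crat and Crot passed as deposited (adjusted p = 0.4024 to 0.8181).

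A ratio of 2 genes within a library does not depend on the scale of that library, and the ratio of Cpt1a to Cpt2 separated the groups completely. It ranged from 2.94 to 3.45 in the vehicle livers, replicates 6 and 7 included, and from 1.32 to 2.53 in the S217879 livers. The mean ratio was 3.21 ± 0.164 against 1.90 ± 0.311, a log2 difference of -0.77 (two-sided permutation test with 100000 resamples, p = 2.00e-05, adjusted p = 8.00e-05 over 4 ratios). For subunits that work in a fixed complex, the group means of the ratio lay close together. Hadha to Hadhb, the 2 subunits of the trifunctional protein, stood at 1.69 ± 0.073 and 1.65 ± 0.153 (log2 difference -0.04, permutation p = 0.4753, adjusted p = 0.4753). Etfa to Etfb, the 2 subunits of the electron transfer flavoprotein, stood at 3.40 ± 0.12 and 3.22 ± 0.18, a small difference of -0.08 that passed (permutation p = 0.0157, adjusted p = 0.0209) and in which 2 of 10 S217879 livers lay above the vehicle median.

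**Figure D2:**
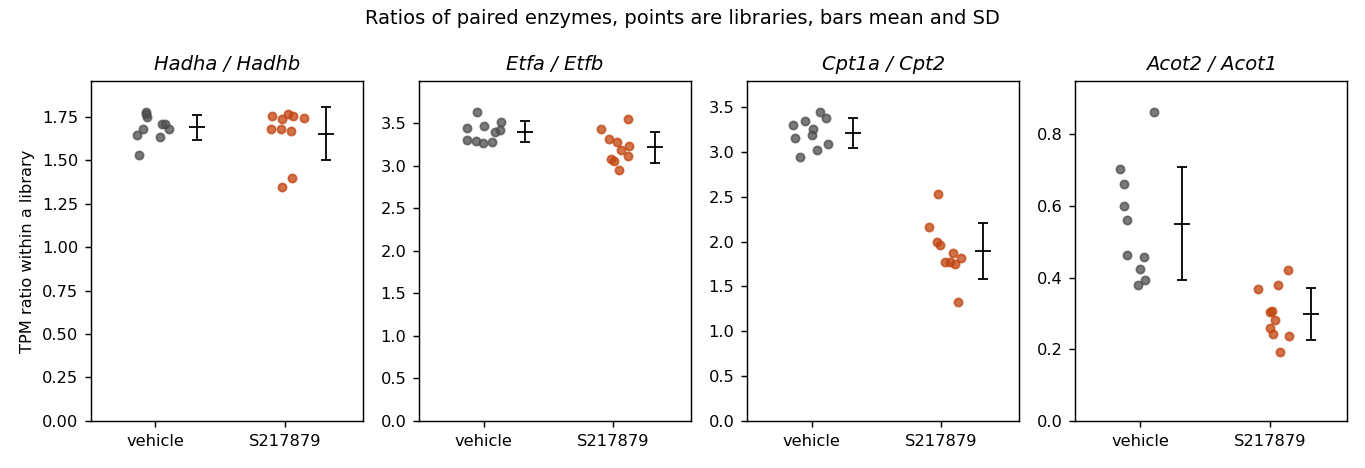
Ratio of TPM of 2 genes within each library (vertical axis, no unit), with 1 panel per gene pair, points for the 10 livers of each group and bars for mean and SD. Cpt1a to Cpt2 lies between 2.94 and 3.45 in vehicle and between 1.32 and 2.53 in S217879 livers, while Hadha to Hadhb overlaps between the groups.

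Among the acyl-CoA dehydrogenases, which open each turn of beta-oxidation for chains of different length, the medium-chain enzyme was the only member called as deposited. Acadm ranged from 96.0 to 242 TPM (median 204) in vehicle and from 206 to 306 TPM (median 246) in S217879 livers. All 10 S217879 livers lay above the vehicle median. Its means were 189 ± 46.3 and 250 ± 28.0 TPM, and it rose by 0.44 on the log2 scale (SE 0.14, 95% interval 0.16 to 0.73, limma adjusted p = 0.0132), with 0.56 after median-of-ratios scaling, 0.30 after the rRNA-type rescaling and 0.26 without vehicle replicates 6 and 7. The very long-chain enzyme Acadvl averaged 225 ± 47.9 and 225 ± 31.5 TPM, the long-chain enzyme Acadl 221 ± 46.7 and 190 ± 26.3 TPM, and the short-chain enzyme Acads 161 ± 31.3 and 170 ± 20.3 TPM. These 3 did not pass as deposited (adjusted p = 0.2817 to 0.9246). Acadl was called lower without vehicle replicates 6 and 7 (-0.36) and after rescaling without the rRNA-type genes (-0.34). The medians of all tested genes in these settings were -0.23 and -0.25. After median-of-ratios scaling Acadl was at -0.08 and did not pass (limma adjusted p = 0.1612). That scaling without vehicle replicates 6 and 7 gave -0.11, which passed narrowly (limma adjusted p = 0.0457). Acads was called higher after median-of-ratios scaling (0.22). It stood at -0.04 as deposited without vehicle replicates 6 and 7, and at -0.04 after the rRNA-type rescaling. Acadvl was called higher after median-of-ratios scaling (0.14) and lower after the rRNA-type rescaling (-0.12), so its direction depends on the scale. Exons of Acadvl share 42.9% of their bases with Dvl2 on the opposite strand, and the sources used here do not say whether counting used strand.

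The electron transfer chain that serves these dehydrogenases gave differences close to 0 as deposited. Etfa averaged 364 ± 83.3 and 345 ± 43.6 TPM, Etfb 107 ± 24.3 and 107 ± 12.8 TPM, and Etfdh, the oxidoreductase that passes the electrons to ubiquinone, 65.2 ± 13.9 and 65.4 ± 7.57 TPM. Their log2 differences were -0.04, 0.04 and 0.03 (95% intervals within -0.32 and 0.31, adjusted p = 0.8550 to 0.8766), and the signs changed with the scale. Etfdh, for example, was called higher after median-of-ratios scaling (0.15) and lower after the rRNA-type rescaling (-0.11). Of the exon bases of Etfb, 53.0% are shared with the protein-coding model Gm45233 on the same strand.

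The 5 genes of the later mitochondrial steps differed in sign, and each 95% interval as deposited included 0. Acaa2, the mitochondrial thiolase, was the most abundant of the 32 genes in vehicle livers at 891 ± 213 TPM and averaged 799 ± 101 TPM with S217879 (log2 difference -0.12, adjusted p = 0.5679). The trifunctional protein subunits Hadha (98.9 ± 19.2 and 84.5 ± 8.62 TPM) and Hadhb (58.7 ± 11.6 and 51.5 ± 7.93 TPM) had negative differences of -0.20 and -0.17. The short-chain hydratase Echs1 (52.2 ± 10.8 and 58.2 ± 7.69 TPM) and the short-chain hydroxyacyl-CoA dehydrogenase Hadh (150 ± 31.6 and 176 ± 22.0 TPM) had positive differences of 0.18 and 0.25. After median-of-ratios scaling Echs1 (0.29) and Hadh (0.37) were called higher without overlap between the groups, and Hadha (-0.09, adjusted p = 0.0448) was called lower. That scaling without vehicle replicates 6 and 7 gave 0.26, 0.33 and -0.11 for Echs1, Hadh and Hadha (limma adjusted p = 3.60e-05, 5.93e-06 and 0.0155). As deposited without those 2 libraries Echs1 and Hadh were 0.02 and 0.09 and did not pass. After rescaling without the rRNA-type genes, where the median of all genes was -0.25, Hadha (-0.35), Hadhb (-0.31) and Acaa2 (-0.26) were called lower. Hadha and Hadhb start head to head, with 272 bases between their RefSeq starts. In 10 of 10 S217879 livers Hadha was below the vehicle median, and in 9 of 10 Hadhb was. Such counts for single genes, here and elsewhere, were made as deposited and depend on library scale. For Etfdh, too, 9 of 10 S217879 livers were below the vehicle median, at a log2 difference of 0.03.

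Of the auxiliary enzymes for unsaturated chains, Decr1, a dienoyl-CoA reductase, averaged 109 ± 24.8 and 102 ± 11.97 TPM (log2 difference -0.06, adjusted p = 0.7831). Eci1, an enoyl-CoA isomerase, ranged from 134 to 290 TPM (median 250) in vehicle and from 212 to 349 TPM (median 287) in S217879 livers. Its means were 234 ± 55.0 and 285 ± 41.5 TPM, with 8 of 10 S217879 livers above the vehicle median. The log2 difference of 0.32 (SE 0.14, 95% interval 0.03 to 0.60) did not pass as deposited (limma adjusted p = 0.0835). It was called after median-of-ratios scaling (0.43, adjusted p = 1.19e-05) and after rescaling without the rRNA-type genes (0.17, adjusted p = 0.0159), but not as deposited on leaving out vehicle replicates 6 and 7 (0.14, adjusted p = 0.1790). Median-of-ratios scaling without those 2 libraries gave 0.385 (limma adjusted p = 7.30e-05).

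The rise of Ehhadh was the largest of the 32 genes. Ehhadh encodes the peroxisomal bifunctional enzyme, a classical PPAR-alpha target that acts on straight-chain acyl-CoA, and lies at chr16:21761287-21787807 on the minus strand. It ranged from 153 to 396 TPM (median 315) in vehicle and from 457 to 606 TPM (median 507) in S217879 livers. The lowest S217879 liver lay above the highest vehicle liver, as was the case for 1.84% of all tested genes. The means were 303 ± 77.6 and 531 ± 56.8 TPM, a log2 difference of 0.85 (SE 0.14, 95% interval 0.56 to 1.14, limma adjusted p = 1.04e-05), and it was 0.97 after median-of-ratios scaling, 0.71 after the rRNA-type rescaling and 0.69 without vehicle replicates 6 and 7. Hsd17b4, the other bifunctional enzyme of peroxisomes, averaged 352 ± 76.9 and 379 ± 43.7 TPM (log2 difference 0.14, adjusted p = 0.4763).

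**Figure D3:**
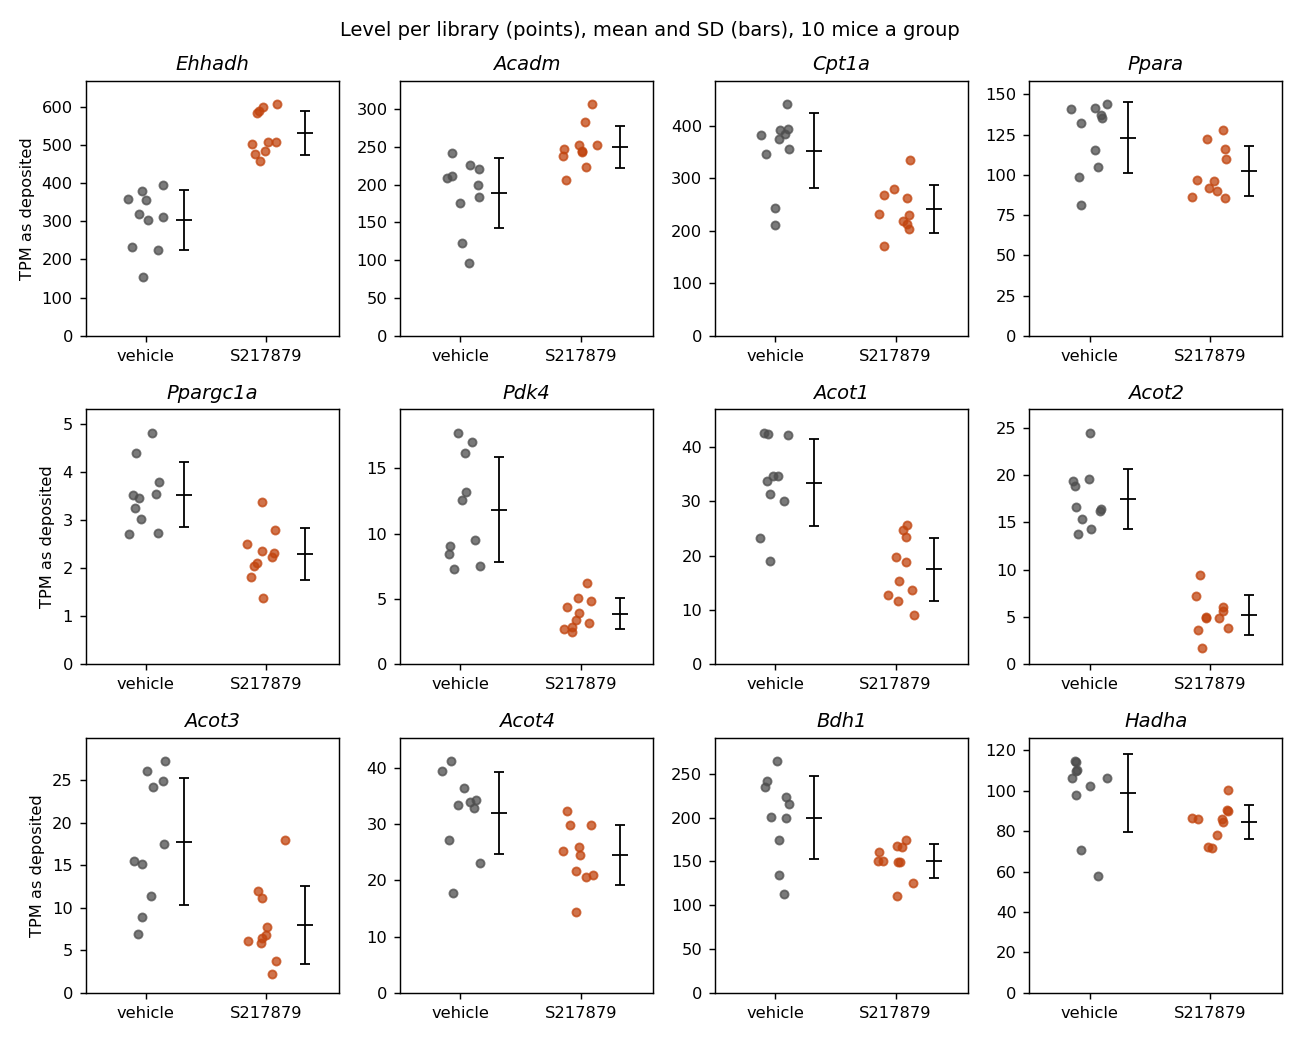
Level in TPM as deposited (vertical axes, each from 0) of 12 of the genes in every liver, with 1 point per library and bars for mean and SD of the 10 mice per group. Ehhadh in S217879 livers (457 to 606 TPM) lies above every vehicle liver, and Acot2 (1.74 to 9.42 TPM) and Pdk4 (2.45 to 6.22 TPM) lie below every vehicle liver.

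The 4 clustered thioesterase genes fell together, and Acot2 fell most of all 32 genes. Acot2, a mitochondrial thioesterase, ranged from 13.8 to 24.5 TPM (median 16.5) in vehicle and from 1.74 to 9.42 TPM (median 4.96) in S217879 livers. The groups did not overlap, as for 1.89% of all tested genes in this direction. The means were 17.5 ± 3.17 and 5.24 ± 2.09 TPM, a 3.31-fold lower level on the log2(TPM + 0.5) scale (log2 difference -1.73, SE 0.19, 95% interval -2.12 to -1.33, limma adjusted p = 3.32e-07). Acot1, the cytosolic enzyme, ranged from 19.01 to 42.6 TPM (median 34.2) in vehicle and from 9.10 to 25.6 TPM (median 17.1) in S217879 livers. Every S217879 liver was below the vehicle median, and the overlap was again with vehicle replicates 6 and 7 alone. The means were 33.4 ± 7.99 and 17.5 ± 5.85 TPM (log2 difference -0.95, SE 0.18, 95% interval -1.32 to -0.57, limma adjusted p = 2.94e-04).

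Acot3, a peroxisomal thioesterase, was the most variable gene of the 32. It ranged from 6.92 to 27.3 TPM (median 16.5) in vehicle and from 2.24 to 18.0 TPM (median 6.65) in S217879 livers. S217879 replicate 9, at 18.0 TPM, was the only liver of its group above the vehicle median. The means were 17.8 ± 7.47 and 8.02 ± 4.57 TPM (log2 difference -1.16, SE 0.32, 95% interval -1.84 to -0.48, limma adjusted p = 0.0103). Exons of Acot3 share 11.5% of their bases with the protein-coding model Gm49366 on the same strand. Another 9.08% are shared with 4732463B04Rik on the opposite strand. For Acot4 these shares are 0.49% and 9.21%. Acot4, a peroxisomal thioesterase for dicarboxylic acyl-CoA, ranged from 17.7 to 41.2 TPM (median 33.7) in vehicle and from 14.4 to 32.3 TPM (median 24.9) in S217879 livers. The ranges overlapped widely, although 10 of 10 S217879 livers were below the vehicle median. Its means were 31.97 ± 7.28 and 24.5 ± 5.37 TPM, and the log2 difference of -0.37 (SE 0.14, 95% interval -0.65 to -0.09) passed narrowly (limma adjusted p = 0.0422). The call of Acot4 held in 17 of 33 alternative settings, with adjusted p from 9.95e-05 to 0.1216. It was lost on leaving out any single 1 of vehicle replicates 1, 2, 4, 5, 8, 9 and 10 or of S217879 replicates 1, 2, 3, 5, 7 and 8 (adjusted p up to 0.1035).

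The ratio of Acot2 to Acot1 within a library fell from 0.551 ± 0.157 (0.380 to 0.863) to 0.299 ± 0.0719 (0.191 to 0.420). All 10 S217879 livers had a ratio below the vehicle median, and the log2 difference was -0.78 (two-sided permutation p = 8.00e-05, adjusted p = 1.60e-04 over 4 ratios). Coding sequences of Acot1 and Acot2 were 95.3% identical, with an identical run of 273 bases, and those of the other pairs of the 4 genes were 75.3% to 84.1% identical. The sources used here do not say how reads matching more than 1 gene were assigned, so the values of single genes of this cluster, and their ratio, are uncertain. Acot12, a cytosolic acetyl-CoA thioesterase on chromosome 13, averaged 73.9 ± 16.1 and 81.8 ± 6.16 TPM (log2 difference 0.18, adjusted p = 0.2970) and was called higher after median-of-ratios scaling (0.30), but not as deposited without vehicle replicates 6 and 7 (0.01). With that scaling and without those 2 libraries Acot12 was at 0.26 (limma adjusted p = 6.08e-05). Next to the cluster lie Acot5, under 0.05 TPM on average in both groups, and Acot6, at 1.43 ± 0.311 and 0.51 ± 0.162 TPM, below the minimum for testing as deposited. These 2 neighbours were chosen after their values were seen.

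Pdk4, pyruvate dehydrogenase kinase 4, holds pyruvate back from oxidation when fat is burned and is induced by PPAR-alpha on fasting. It ranged from 7.32 to 17.7 TPM (median 11.05) in vehicle and from 2.45 to 6.22 TPM (median 3.64) in S217879 livers, without overlap. The means were 11.8 ± 4.03 and 3.89 ± 1.22 TPM, a 2.77-fold lower level (log2 difference -1.47, SE 0.18, 95% interval -1.85 to -1.09, limma adjusted p = 2.31e-06). Bdh1, the mitochondrial enzyme that turns acetoacetate into hydroxybutyrate, ranged from 113 to 264 TPM (median 208) in vehicle and from 110 to 174 TPM (median 150) in S217879 livers. The 10 S217879 livers were all below the vehicle median, and the lowest 2 vehicle libraries were replicates 6 and 7. Its means were 199.98 ± 47.6 and 150 ± 19.6 TPM (log2 difference -0.38, SE 0.14, 95% interval -0.66 to -0.10, limma adjusted p = 0.0321). That call held in 24 of 33 alternatives and was lost on leaving out any single 1 of vehicle replicates 1, 5, 8, 9 and 10 or S217879 replicates 2 and 3, with adjusted p up to 0.0721. Vnn1, a pantetheinase that responds to PPAR-alpha, averaged 111 ± 26.4 and 126 ± 20.5 TPM (log2 difference 0.21, adjusted p = 0.2805).

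The same S217879 livers stood at the ends of the ranges of the genes that fell. S217879 replicate 3 was the lowest of its group in 7 of the 8 genes called lower, and replicate 9 the highest in 6 of them, both as deposited and after median-of-ratios scaling. Replicate 9 also had the lowest scaled Ehhadh and Acadm of its group and the lowest Nqo1, 74.9 TPM beside 89.1 to 122 TPM in the other 9. These libraries were singled out after their values were seen. Among animals of 1 group, after median-of-ratios scaling, the coefficient of variation of the 12 genes of the dehydrogenase, electron transfer and later mitochondrial steps lay between 5.17% (Hadha) and 11.57% (Acadm) in vehicle and between 3.47% (Acads) and 9.70% (Etfb) in S217879 livers, whereas it was 35.0% and 52.5% for Acot3, 22.5% and 36.2% for Acot2, and 33.6% and 24.8% for Pdk4. Within groups, the scaled level of Pdk4 gave no correlation with Cpt1a, Acot1 or Ehhadh that passed a permutation test in any of 6 relations.

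**Figure D4:**
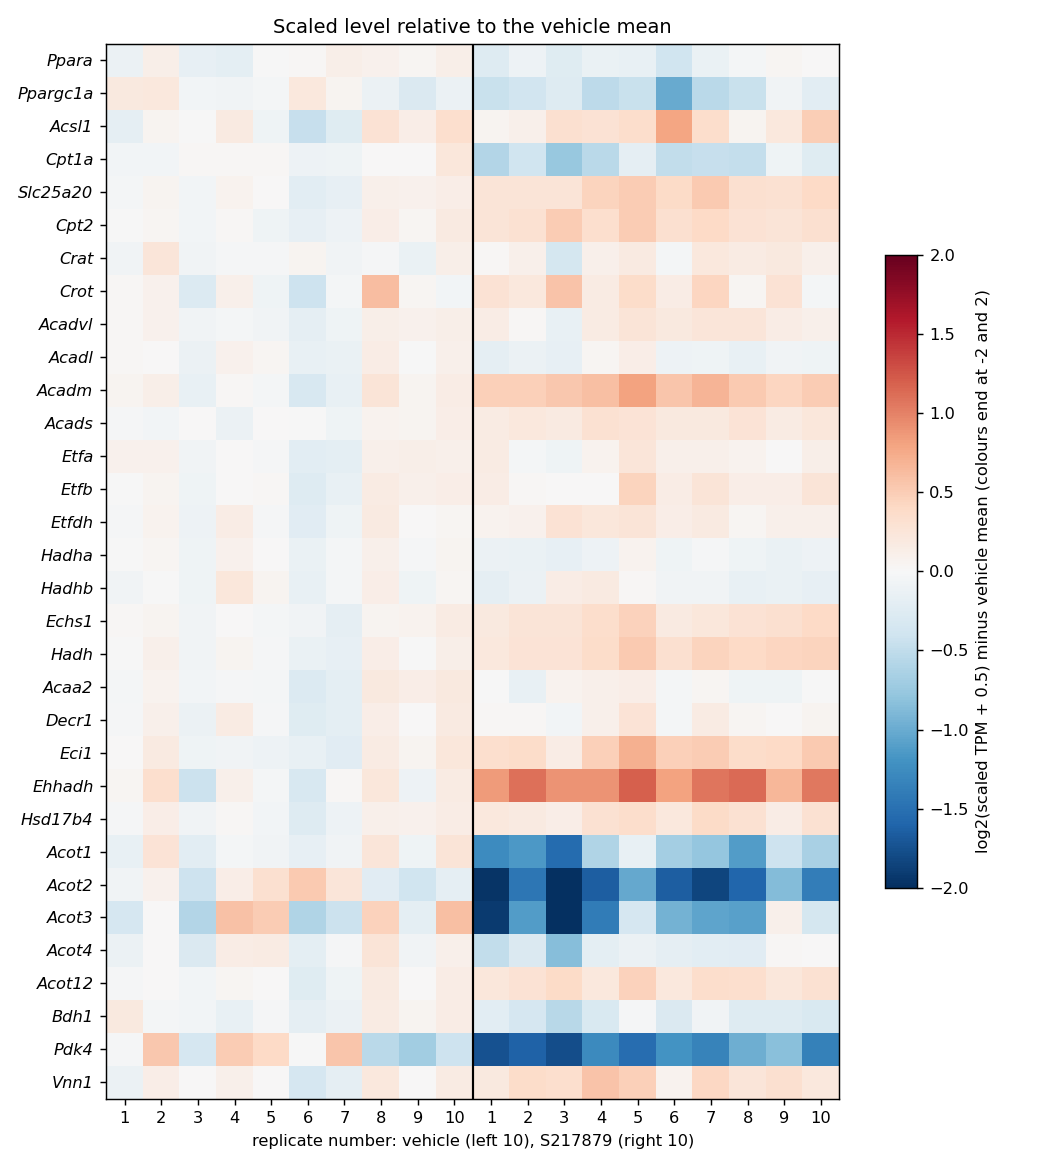
Scaled level of the 32 genes (rows) in each of the 20 livers (columns, vehicle on the left and S217879 on the right), as log2(scaled TPM + 0.5) minus the vehicle mean of the gene, with colours that end at -2 and 2. Ehhadh is higher in all S217879 livers, and Acot1, Acot2, Acot3 and Pdk4 vary most, with S217879 replicate 3 among the lowest.

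The highest Pearson's r was that of Pdk4 and Cpt1a in S217879 livers, with r = 0.513 (permutation p = 0.1282, adjusted p = 0.4458 over 6 relations) and Spearman's rho = 0.406 (permutation p = 0.2488, adjusted p = 0.6822). It was -0.111 without the 2 animals farthest from the median of Pdk4, replicates 3 and 9. In vehicle livers the same pair gave r = -0.415 (permutation p = 0.2401, adjusted p = 0.4802), rho = -0.285 (adjusted p = 0.6822) and r = -0.384 without the 2 farthest animals. Pdk4 and Acot1 gave r = -0.046 and rho = 0.200 in vehicle and r = 0.491 and rho = 0.564 in S217879 livers (adjusted p = 0.8991, 0.6822, 0.4458 and 0.5750), and r = -0.106 and 0.117 without the 2 farthest. Pdk4 and Ehhadh gave r = 0.245 and rho = 0.152 in vehicle and r = -0.263 and rho = -0.176 in S217879 livers (adjusted p = 0.5844, 0.6822, 0.5844 and 0.6822), and r = 0.210 and 0.051 without the 2 farthest.

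Other genes of the same pathways also moved in both directions. Of 29 tested other genes of mitochondrial fatty acid oxidation, 6 rose and 6 fell (20.7% each, median log2 difference 0.16), beside 6.07% and 23.5% of all tested genes (median -0.12). The counts depended on the scale, with 18 higher and 7 lower after median-of-ratios scaling, 10 and 12 after the rRNA-type rescaling, and 6 and 9 when vehicle replicates 6 and 7 were left out. The shares of all tested genes in these settings, in this order, were 26.6% and 27.1%, 7.15% and 63.1%, and 5.56% and 54.4%. Acot11, another thioesterase, rose from 7.08 ± 1.92 to 13.2 ± 2.15 TPM and Acad10, an acyl-CoA dehydrogenase family member, from 17.6 ± 3.75 to 27.0 ± 2.60 TPM. Acsl3, an acyl-CoA synthetase, fell from 19.1 ± 5.54 to 8.10 ± 2.096 TPM. Acacb, whose product malonyl-CoA inhibits Cpt1a protein, fell from 42.0 ± 17.8 to 19.4 ± 9.73 TPM, a log2 difference of -1.13 (limma adjusted p = 0.0094). Of 7 other ketone body genes 2 rose and 2 fell, with 2 higher and 4 lower after the rRNA-type rescaling (beside 7.15% and 63.1% of all tested genes). Bdh2, a cytosolic hydroxybutyrate dehydrogenase, rose from 3.02 ± 1.14 to 6.05 ± 0.758 TPM, while the transporter Slc16a6 fell from 3.74 ± 0.495 to 1.98 ± 0.559 TPM and Oxct1, an enzyme of ketone body use, from 7.34 ± 1.52 to 5.04 ± 1.22 TPM.

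Of 40 tested other PPAR-alpha target genes, 4 rose and 12 fell (10% and 30%, median log2 difference -0.13), near the 6.07%, 23.5% and -0.12 of all tested genes. After median-of-ratios scaling 14 were called higher and 13 lower (beside 26.6% and 27.1% of all tested genes). After the rRNA-type rescaling the counts were 4 and 22 (beside 7.15% and 63.1%), and without vehicle replicates 6 and 7 they were 4 and 20 (beside 5.56% and 54.4%). The deepest fall in that list was that of Cyp4a14, a microsomal fatty acid omega-hydroxylase strongly induced by PPAR-alpha ligands. It went from 87.3 to 355 TPM (median 170) in vehicle to 10.2 to 64.2 TPM (median 19.4) in S217879 livers, with no overlap. The log2 difference was -2.96 (SE 0.32, 95% interval -3.62 to -2.30, limma adjusted p = 7.41e-07). Its relative Cyp4a32 fell from 50.5 ± 13.02 to 16.1 ± 7.18 TPM. Cyp8b1, a bile acid 12-alpha-hydroxylase, rose from 134 ± 37.9 to 282 ± 70.4 TPM, and Acsm5, a medium-chain acyl-CoA synthetase, from 84.3 ± 21.3 to 156 ± 11.3 TPM. Of 27 tested cofactors of PPAR-alpha and of mitochondrial biogenesis, 4 fell as deposited (14.8%, beside 23.5% of all tested genes). Here 7 were called higher and 4 lower after median-of-ratios scaling, 1 higher and 17 lower after the rRNA-type rescaling, and 14 lower without vehicle replicates 6 and 7. Of all tested genes, 26.6% were called higher and 27.1% lower after median-of-ratios scaling. Lower calls made up 63.1% of all tested genes after the rRNA-type rescaling and 54.4% without vehicle replicates 6 and 7. Lpin2, a lipin phosphatidate phosphatase, fell from 86.6 ± 14.2 to 56.6 ± 5.28 TPM.

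Markers of other cells and of liver zones moved beside these genes, and their part in the results was not tested. Counts are as deposited, where 6.07% of all tested genes were called higher and 23.5% lower. All 10 stellate cell and fibroblast markers fell (summed level 299 to 562 TPM in vehicle and 214 to 407 TPM in S217879 livers). Of 8 markers of lipid-associated macrophages 7 fell and 1 rose (337 to 753 and 179 to 390 TPM). Lower calls numbered 3 of 8 for macrophages and Kupffer cells (320 to 732 and 295 to 604 TPM) and 3 of 5 tested for cholangiocytes (187 to 481 and 98.8 to 256 TPM). Endothelial markers gave 3 higher and 1 lower of 8 (68.5 to 145 and 123 to 164 TPM), and lymphocyte markers summed to 24.4 to 464 and 20.6 to 178 TPM. Hepatocyte markers gave 2 higher and 2 lower of 10. Endothelial markers called higher numbered 6 after median-of-ratios scaling, and hepatocyte markers called lower numbered 6 after the rRNA-type rescaling. Cholangiocyte markers called lower numbered 2 of 5 after median-of-ratios scaling and 5 of 5 after the rRNA-type rescaling. Those of lipid-associated macrophages numbered 7 of 8 on both scales, with 1 called higher on both. Of 8 periportal markers 3 rose and 1 fell (4206 to 9373 and 6897 to 9907 TPM), and of 7 tested pericentral markers 1 rose, Cyp1a2, and 4 fell (2412 to 8561 and 5658 to 7667 TPM). After the rRNA-type rescaling 4 periportal and 5 pericentral markers were called lower. The fat cell gene Cfd rose from 20.8 ± 12.5 to 102 ± 57.4 TPM, while Adipoq, Plin1, Lep and Retn, which define adipocytes, were below the minimum of 1 TPM. The 6 markers of skeletal muscle, a tissue rich in Pdk4 and Ppargc1a, summed to at most 0.34 TPM in any liver. No marker was at 0 in every library.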

How the data were processed

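The authors made TPM values from liver RNA and deposited them as a table of 49315 genes by 20 libraries, each column summing to 1e+06. Per the labels' protocols, libraries came from polyadenylated RNA with a stranded kit. The submitters' processing notes name Trimmomatic 0.36, STAR 2.5.2b, featureCounts, Subread 1.5.2 and GRCm38. The sources used here give neither the annotation nor whether strand was used in counting, nor how reads with several matches were treated. TPM keeps no depth, so the number of reads per library is unknown and no counting interval is given.

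Columns were matched to samples by the animal number in the labels (0 left unmatched), and groups come from the treatment label. No 2 libraries were identical (0 pairs). Nothing beyond the separate numbers says that animals were independent. The p-values of group differences set them against the spread between these samples and assume that the animals were independent. The 13401 genes whose mean over the libraries reached 1 TPM were compared as log2(TPM + 0.5) with limma 3.58.1 in R 4.3.3 (trend and robust, all 20 libraries, group as the only term, two-sided), with Benjamini-Hochberg adjustment over all genes tested and a threshold of 0.05. The pseudocount of 0.5 understates changes of low genes. The 4 ratios and 6 correlations were tested by permutation with 1e+05 resamples in Python 3.11.15 with numpy 2.4.6, ratios on log2 values and correlations on median-of-ratios scaled log2 values within each group. Symbols, exons and coordinates come from GENCODE M21 (48970 identifiers matched), upstream sequences from RefSeq (GRCm38.p6), and coding alignments were made with Biopython 1.88. The steps were tested on simulated data.

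The 32 genes, the other gene lists and the markers were chosen with earlier results of these data known. Full statistics are given for Ppara, Ppargc1a, Cpt1a and Pdk4 and for the 12 genes with the largest absolute log2 difference, and from every other list the 2 strongest called genes in each direction (without any, the 2 most abundant) were eligible, of which not every one is described. The 33 alternatives were other pseudocounts, minimum levels, scalings, weights and moderation, a Wilcoxon test, and leaving out libraries.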

Additional observations from a re-analysis of the deposited data

Results flagged for a closer look

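In 4 of 64 groups of 10 libraries (32 genes in 2 groups), 1 library lay far from the others by Dixon's criterion, where the gap to the nearest library exceeds 0.466 of the group's range. Chance alone marks about 5% of groups. All 4 were the highest value of S217879 replicate 4. Its level of Acaa2, the mitochondrial thiolase, was 1022 TPM beside 836 TPM in the next liver (0.472 of the range), and that of Acads, the short-chain dehydrogenase, was 215.8 TPM beside 182 TPM (0.503). Hadhb, the beta subunit of the trifunctional protein, was at 71.7 TPM beside 53.8 TPM (0.620), and the pantetheinase Vnn1 at 178 TPM beside 138 TPM (0.564). This library had the lowest share of the 4 rRNA-type genes of all 20 libraries (14.07%) and the highest size factor of its group (1.153), and the part of that share in these values was not tested.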

How the results depend on the processing

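The 4 genes Ehhadh, Acadm, Cpt1a and Pdk4 and the 3 genes Acot1, Acot2 and Acot3 kept their direction and their call in all 33 alternatives, and Ppargc1a in 32, since it lies below a minimum of 5 TPM. The ratios of Cpt1a to Cpt2 and of Acot2 to Acot1 kept theirs in every alternative run.

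Among the 32 genes, 16 were called higher after median-of-ratios scaling, 8 after quantile normalization, 6 after rescaling without the rRNA-type genes and 12 after median-of-ratios scaling without vehicle replicates 6 and 7. Counts called lower were 15 with quantile normalization, 18 with that rescaling, 17 with array weights and 15 without vehicle replicates 6 and 7. Of all tested genes, 63.1% were called lower with that rescaling and 54.4% without vehicle replicates 6 and 7. The shares for quantile normalization and array weights are not given here. The count of all tested genes higher was 3562, 3536 and 3248 after median-of-ratios scaling, quantile normalization, and median-of-ratios scaling without vehicle replicates 6 and 7. The count of all tested genes lower was 1642 with a minimum of 5 TPM (fewer genes tested), 9113 with the rescaling, 8023 with array weights, 7307 without vehicle replicates 6 and 7, and 2637 to 5194 on leaving out 1 library, the last without vehicle replicate 6. Leaving out 1 library gave 2 members higher each time and 6 to 12 lower. Members without overlap numbered 3 as deposited, 10 after median-of-ratios scaling, 8 after the rescaling and 6 without vehicle replicates 6 and 7. The cause of these shifts was not tested.

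Sign changes touched members that were not called as deposited. With median-of-ratios scaling, and then also without vehicle replicates 6 and 7, Crat was at 0.070 and 0.069, Etfa at 0.075 and 0.023 and Decr1 at 0.058 and 0.004. With the rescaling, array weights and without vehicle replicates 6 and 7, in this order, Crot was at -0.013, -0.118 and -0.054, Acadvl at -0.122, -0.117 and -0.139, Acads at -0.042, -0.045 and -0.037, Etfb at -0.104, -0.113 and -0.137, Etfdh at -0.110, -0.152 and -0.132 and Hsd17b4 at -0.005, -0.020 and -0.032. Quantile normalization gave -0.094 for Acadvl, -0.020 for Acads and -0.024 for Etfb. Acsl1 was at -0.065 with array weights and -0.033 without vehicle replicates 6 and 7, and Vnn1 at -0.040 with array weights. On leaving out 1 library, Crat ranged from -0.105 to 0.016, Acadvl from -0.066 to 0.068, Etfb from -0.057 to 0.074 and Etfdh from -0.059 to 0.069.

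With TPM as deposited, r was 0.170 for Pdk4 and Cpt1a and 0.244 for Pdk4 and Acot1 in vehicle, and 0.267 for Pdk4 and Ehhadh in S217879 livers. Leaving out 1 animal, Pdk4 and Acot1 in vehicle ranged from -0.323 to 0.164, and Pdk4 and Ehhadh in S217879 from -0.489 to 0.189. No paired analysis was possible because animal numbers in the labels are unique, so the groups have none in common. Depth is unknown, and genes near 1 TPM are the least certain.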
